A study of Drosophila melanogaster with 2 samples.

Results

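The genes fkh, bowl, dve, byn, cad, hkb, CrebA and sage encode transcription factors that pattern the embryonic gut and salivary gland of Drosophila melanogaster, and binding of the ecdysone-induced ETS-domain factor Eip74EF was described at these 8 of 13945 protein-coding genes. The genes were taken as a named list, and every peak summit from 2 kb upstream of a gene to its annotated end was assigned to it (Ensembl annotation BDGP6.54, assembly dm6). The data are chromatin immunoprecipitation and sequencing (ChIP-seq) peak lists from whole embryos of mixed sex aged 8 to 16 h by the source name, from a transgenic line that stably carries Eip74EF with enhanced green fluorescent protein at its C terminus, precipitated with an antibody against the tag. The 2 samples, biological replicates 1 and 3 by their labels, formed 1 group, and all embryos carried the transgene. A separate age field in the labels holds a number of hours too large for an embryo and was not used. The labels do not say which promoter drives the fusion or whether the untagged gene is still present, and no untagged embryos were among the samples. The deposited peak lists hold 30000 peaks from each replicate, 30000 from the pooled replicates and 5004 that passed the authors' irreproducible discovery rate (IDR) step. The lists carry no read counts, and sequencing depth is unknown. With 1 group there is no comparison between conditions, and the values below are set beside those of all protein-coding genes or of the whole IDR list, without a test. In whole embryos, the cells in which a summit arose are not known.

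The gut tube of the fly forms from ectodermal foregut and hindgut primordia and an endodermal midgut, and the salivary gland forms from an ectodermal placode that invaginates and becomes a secretory tube. The forkhead factor fkh acts in both systems, in the foregut and hindgut and in the salivary gland, where it supports invagination and cell survival, and in larval glands its level falls in response to ecdysone. In the gland, the basic helix-loop-helix factor sage works with fkh, CrebA raises genes of the secretory machinery and the zinc finger factor hkb shapes invagination, besides its earlier role in the endoderm. In the gut, the T-box factor byn and the homeodomain factor cad specify hindgut, the zinc finger factor bowl acts in foregut and hindgut, and the homeodomain factor dve acts in proventriculus and midgut. Eip74EF belongs to the ETS family, whose members bind sequences with a GGAA core, and its gene is among the first that ecdysone, the steroid of molting and metamorphosis, induces.

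The sequences within 50 bp of 6 summits are shown because they span what was seen at these genes, from the strongest summits of fkh, bowl and CrebA to the weakest, at cad. They were read from the RefSeq copy of the dm6 assembly, 5′ to 3′ on the plus strand, and capitals mark GGAA or its reverse complement TTCC.
fkh promoter, chr3R:28585416-28585516: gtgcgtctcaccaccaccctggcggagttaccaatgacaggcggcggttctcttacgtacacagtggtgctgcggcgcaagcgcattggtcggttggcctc
bowl promoter, chr2L:3771334-3771434: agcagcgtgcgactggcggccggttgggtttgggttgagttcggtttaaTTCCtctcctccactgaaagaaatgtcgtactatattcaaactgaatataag
bowl intron, chr2L:3776754-3776854: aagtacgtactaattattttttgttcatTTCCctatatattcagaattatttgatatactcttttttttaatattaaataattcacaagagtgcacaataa
CrebA promoter, chr3L:15535090-15535190: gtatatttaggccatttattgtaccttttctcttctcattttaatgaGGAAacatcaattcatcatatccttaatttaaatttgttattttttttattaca
CrebA intron, chr3L:15538044-15538144: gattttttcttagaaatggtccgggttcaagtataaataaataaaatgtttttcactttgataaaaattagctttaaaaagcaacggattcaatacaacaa
cad intron, chr2L:20780915-20781015: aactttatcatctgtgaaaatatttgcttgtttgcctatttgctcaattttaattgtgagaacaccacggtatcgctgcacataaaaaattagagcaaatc
The bowl promoter and CrebA promoter windows hold the core within 1 bp of the summit, the bowl intron window holds it farther out, and the fkh, CrebA intron and cad windows hold none.

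Of the 8 genes, 5 had an IDR summit in their window, against 24.7% of all protein-coding genes (3446 of 13945). These were fkh, bowl, dve, cad and CrebA, with 12 IDR summits among them. The other 3, byn, hkb and sage, had no summit in their window in the IDR, pooled or either replicate list, as did 38.4% of all protein-coding genes. In the pooled list, 5 of the 8 had a summit, against 48.9% of all genes, and the same number had one in replicate 1, against 58.5%, and in replicate 3, against 47.1%. A promoter summit, within 500 bp of any transcription start site (TSS) of the gene, was found in the IDR list at 4 of the 8, namely fkh, bowl, dve and CrebA, against 15.6% of all protein-coding genes. At dve it lay at an internal TSS. How the promoter share varies with gene length or with the number of TSSs was not computed.

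**Figure D1:**
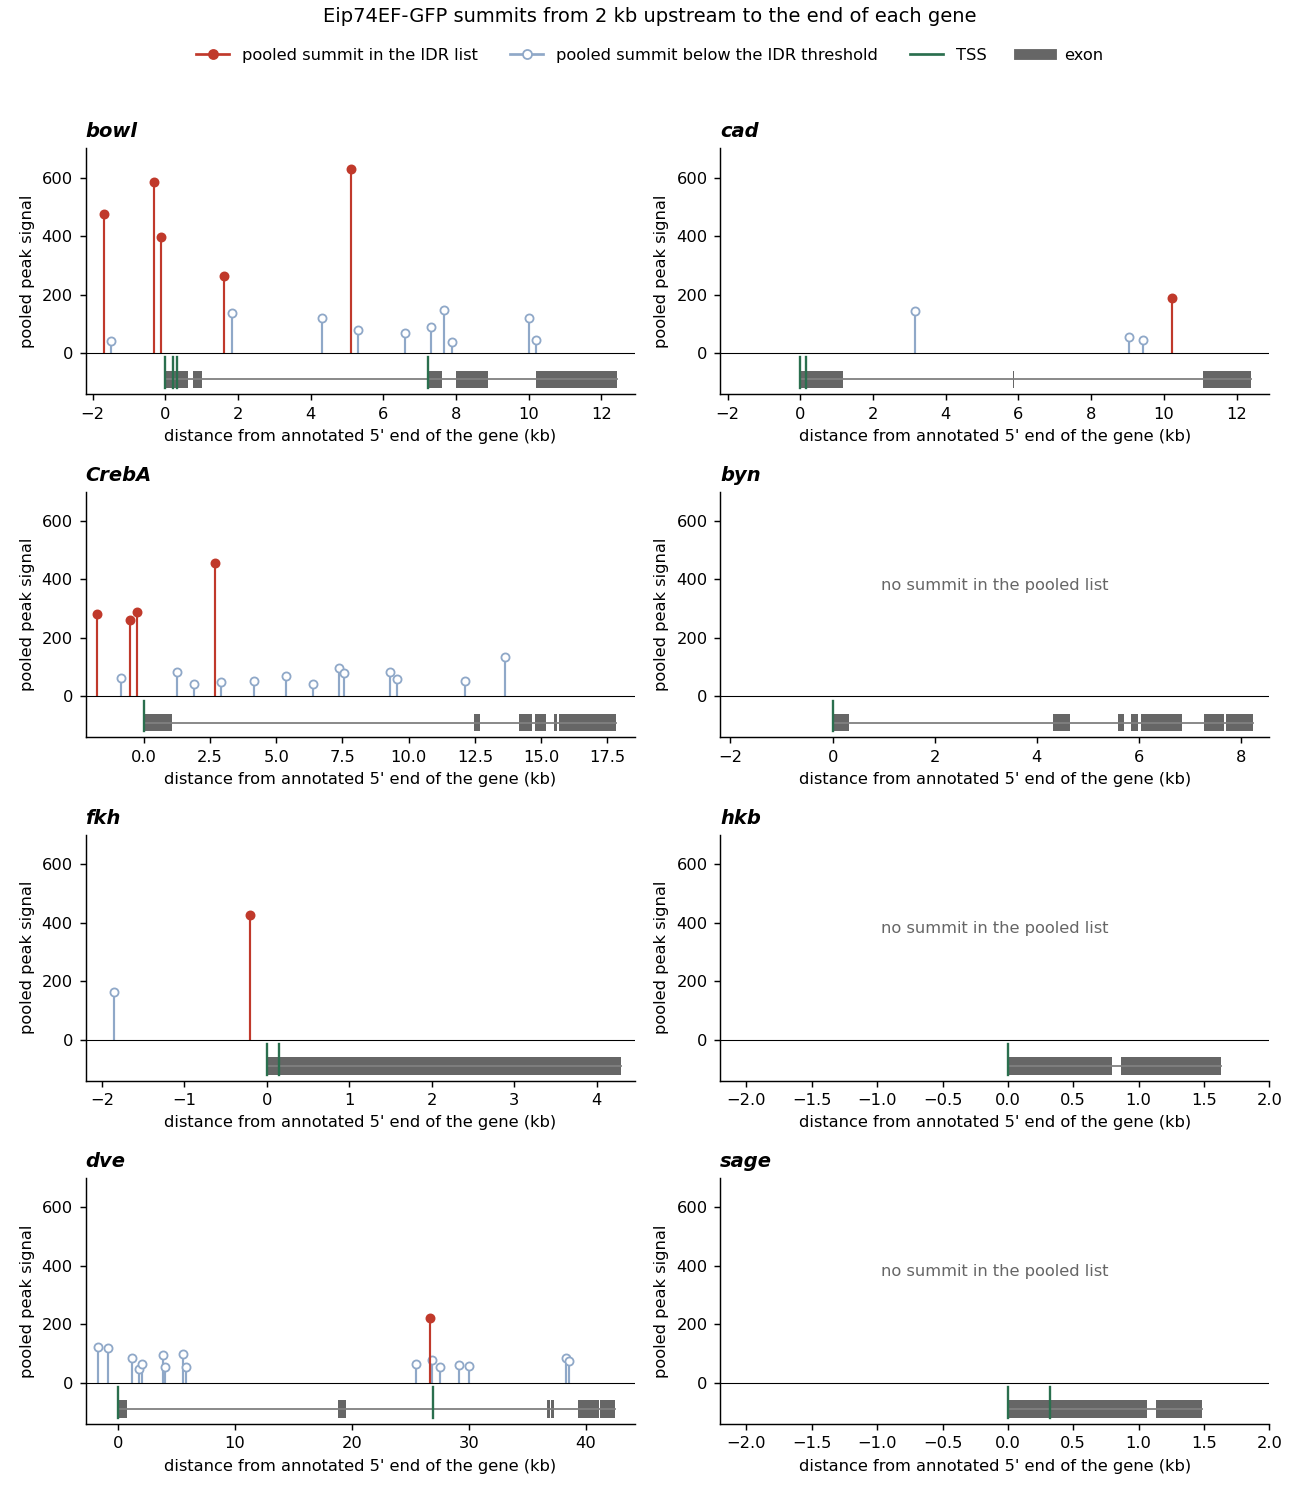
Pooled-list summits at the 8 genes, with distance from the annotated 5′ end of the gene in kb on the horizontal axis and the authors' pooled peak signal on the vertical axis. Filled red points are summits that are also in the IDR list, open blue points are pooled summits below the IDR threshold, and exons and TSSs are drawn under each panel. IDR summits of bowl lie from 1699 bp upstream to 5104 bp past its start. Those of CrebA lie from 1766 bp upstream to 2699 bp past its start. A lone IDR summit lies near the fkh start, and byn, hkb and sage have no summit.

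Longer genes held a summit more often. In the length decile of bowl, byn and cad (6458 to 14581 bp), 44.3% of genes had an IDR summit. The share was 57.3% in the decile of dve and CrebA (14601 bp and longer), 29.5% in that of fkh (4030 to 6455 bp) and 17.6% in that of hkb and sage (1344 to 1717 bp). At fkh, cad and dve, each with 1 summit, these shares give how common at least 1 summit was at genes of their size. The number of summits set bowl and CrebA apart from most genes. For bowl, 1.24% of all protein-coding genes and 0.789% of its length decile had at least its 5 summits. For CrebA, 2.21% of all genes and 17.6% of its own decile had at least its 4. In the pooled list, 68.7% of genes in the decile of bowl, byn and cad had a summit, and 78.8% in that of dve and CrebA. The pooled share was 54.9% in the decile of fkh and 42.8% in that of hkb and sage. The 8 genes had a median length of 10316 bp, against 2166 bp over all genes. The pooled count of 5 of 8 is therefore near what genes of these lengths had.

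**Figure D2:**
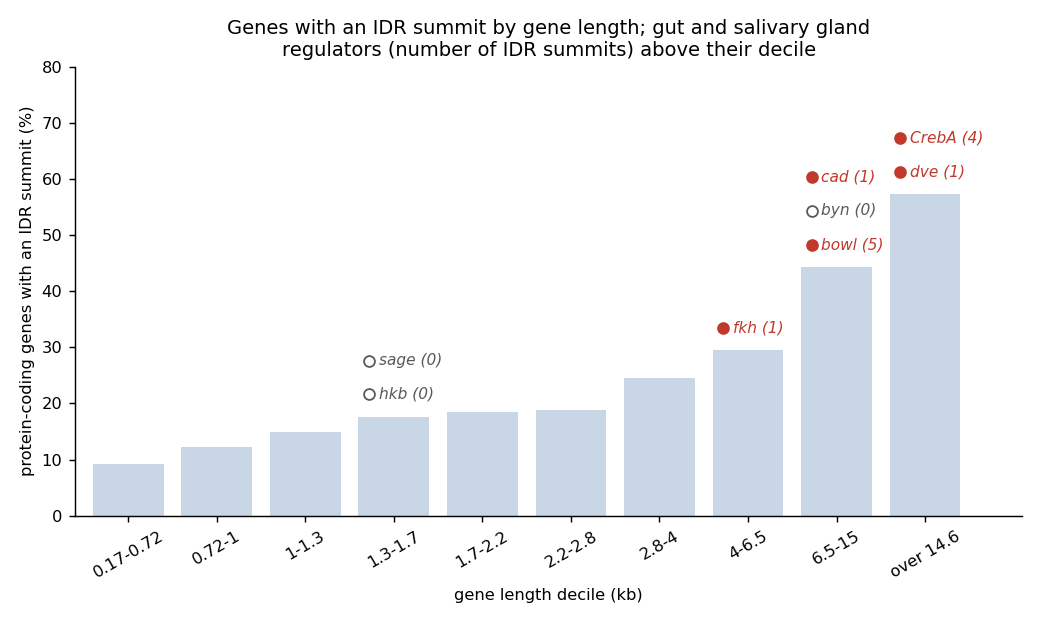
Share of protein-coding genes with an IDR summit in their window (2 kb upstream included), in percent, by decile of gene length in kb. Points above the bars name the 8 genes in their decile with their number of IDR summits, filled where there was at least 1, and the height of a point carries no value. The share runs from 9.18% in the shortest decile to 57.3% in the longest, and hkb and sage stand in a decile where 17.6% of genes had a summit.

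**Figure D3:**
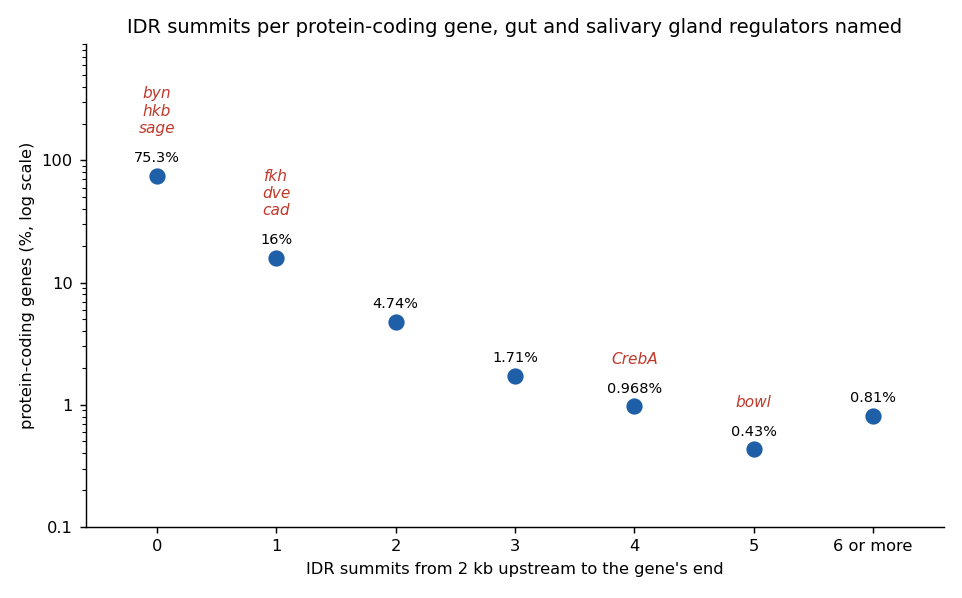
Share of protein-coding genes, in percent on a log scale, by number of IDR summits in the gene window, with the 8 genes named. Of all genes, 75.3% had none, as byn, hkb and sage, 0.968% had exactly 4, as CrebA, and 0.43% had exactly 5, as bowl.

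Among the 8 genes, bowl carried the most IDR summits and the strongest. It lies on the plus strand of 2L from 3771700 to 3784121 (FBgn0004893) and has 4 annotated TSSs. Its strongest summit, at 2L 3776804 with a signal of 630.5 and rank 569 of the 5004 IDR peaks, lay in an intron, 2134 bp upstream of the nearest bowl TSS and 5104 bp past the annotated start of the gene. In replicate 1 this summit had a signal of 230.2 and rank 563, and in replicate 3 a signal of 409.0 and rank 567, so that its rank was nearly the same in both. Signals are the authors' values on a scale of each list, and ranks count from the strongest peak of each list. Whether the unknown depth shifts ranks between the replicates was not tested.

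The start of bowl had a pair of neighbouring summits. These lay at 2L 3771384, 316 bp upstream of the start, with a signal of 585.5 and rank 677, and at 2L 3771587, 113 bp upstream, with a signal of 395.7 and rank 1376. They are 203 bp apart within the same deposited interval (2L 3771271 to 3771683), and no list holds summits closer than 199 bp. Whether they mark separate contacts was not tested. The stronger of them had ranks 775 in replicate 1 and 654 in replicate 3, and the weaker had ranks 1714 and 1440, with positions 2 bp and 1 bp apart between the replicates. A further upstream summit, at 2L 3770001 with a signal of 475.7 and rank 998, lay 1699 bp before the bowl start and inside an exon of the noncoding gene lncRNA:CR43704, 453 bp from a TSS of that gene. Whether it belongs to bowl or to this neighbour cannot be told apart. The fifth bowl summit, at 2L 3773325, was intronic, 1299 bp downstream of a bowl TSS, with a signal of 264.8, below the IDR list's median of 282.5. It had a signal of 118.2 and rank 2158 in replicate 1, and a signal of 160.0 and rank 3154 in replicate 3. The upstream summit at 2L 3770001 had a signal of 180.7 and rank 932 in replicate 1, and a signal of 289.5 and rank 1126 in replicate 3, but their positions were 99 bp apart. Beside it, replicate 1 listed a further strong summit matched to the pooled one at 2L 3770206, with a signal of 123.9 and rank 1963. Replicate 3 had no summit within 100 bp of that position, and the pooled list ranked it 28227 with a signal of 40.58. The replicates thus differed in the summits they listed in lncRNA:CR43704.

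Below the IDR threshold, bowl held 10 more pooled summits, with signals from 38.41 to 146.8, of which 5 were matched in both replicates. Some lay close to the minimum spacing of 199 bp from a stronger summit, as those at 2L 3773525 and 2L 3777009 beside IDR summits. The first of these is inside the IDR interval from 2L 3773097 to 3773552. In the pooled list, 18.5% of gaps between neighbouring summits were under 250 bp. Whether such summits mark separate contacts was not tested. The highest, at 2L 3779380 and rank 6949, lay 442 bp past an internal bowl TSS, with ranks of 11068 in replicate 1 and 7575 in replicate 3. The one closest to a TSS, at 2L 3779005 in a 5′ untranslated exon, lay 67 bp past the same TSS with a signal of 89.61, and neither replicate had a summit within 100 bp of it. Weaker intronic summits lay on both sides of the strongest IDR summit, at 2L 3776013 with a signal of 121.1 and at 2L 3777009 with 80.05. The IDR summits of bowl were therefore in the 5′ part of the gene, up to 5104 bp from its start, and the 7 pooled summits beyond that point were below the threshold.

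For dve, a gene of 42507 bp on the plus strand of 2R (22243963 to 22286469, FBgn0020307), the only IDR summit was at an internal start. It lay at 2R 22270605, 26642 bp past the annotated start and 313 bp upstream of the downstream TSS, in an intron of the longer transcript. Its signal was 222.4, at rank 3761. In replicate 1 it had a signal of 91.27 and rank 3488, and in replicate 3 a signal of 122.7 and rank 4803. The gene held 16 more pooled summits below the IDR threshold, with signals from 48.84 to 121.1 and ranks from 9038 down to 24248, of which 8 had a summit within 100 bp in both replicates. The foremost of these, at 2R 22242220 with a signal of 121.1, lay 1743 bp upstream of the annotated start, and the next, at 2R 22243128 with 119.2, lay 835 bp upstream. Both stood far higher in replicate 3 than in replicate 1. The first had rank 20200 with a signal of 27.6 in replicate 1, and rank 9480 with 76.4 in replicate 3. The other had rank 25596 with 22.05 in replicate 1, and rank 7035 with 95.58 in replicate 3. Next to the internal start, a weaker summit at 2R 22270826 lay 92 bp upstream of the TSS with a pooled signal of 77.43, and here replicate 1 ranked higher (10766) than replicate 3 (23769). This weaker summit lies inside the deposited interval of the IDR summit (2R 22270377 to 22270832). Whether it marks a separate contact was not tested. The window of dve thus held 1 IDR summit and 16 weaker pooled ones. No pooled summit lay between those at 5816 and 25457 bp past the annotated start. The number of IDR summits per 10 kb was 0.225, against 3.47 over bowl, and that of pooled summits was 3.82, against 10.4.

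The homeobox gene cad (2L 20770731 to 20783135, plus strand, FBgn0000251) had 1 IDR summit, and it was near the threshold. It lay at 2L 20780965, in an intron and 10071 bp downstream of the nearest cad TSS. The nearest TSS of any protein-coding gene was that of Pomp, 6691 bp away, and this was the only one of the 12 summits closest to another gene's protein-coding TSS. The summit stood at rank 4884 of 5004, with a signal of 187.7, where the weakest IDR peak had 184.6. Its rank was 6137 in replicate 1, with a signal of 66.15, and 4843 in replicate 3, with a signal of 122.1, so it stood among the 5004 strongest peaks of replicate 3 and not of replicate 1. The strongest cad summit below the threshold, at 2L 20773895 in an intron with a pooled signal of 143.1 and rank 7192, was found at rank 11285 in replicate 1 and at rank 6473 in replicate 3. The other 2, at 2L 20779774 with a signal of 53.84 and at 2L 20780145 with 42.84, lay in an intron near the IDR summit and were not matched in both replicates. No IDR summit lay within 500 bp of a cad TSS.

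The hindgut gene byn (3L 11927693 to 11935919, plus strand, FBgn0011723) lay in a stretch with no peaks. The nearest summit of the pooled list was 63.8 kb upstream, at 3L 11863856 near a TSS of CG44837, with a signal of 112.0, and the nearest IDR summit was 108 kb upstream, near the TSS of CG5946. Only 2.63% of protein-coding genes had their nearest pooled summit as far away or farther. In the length decile of byn, 21.6% of genes had no summit in any list. In replicates 1 and 3 the nearest summits were 63.8 and 58.2 kb away.

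The forkhead gene fkh (3R 28580976 to 28585264, minus strand, FBgn0000659), which acts in gut and gland, had 1 IDR summit, at its promoter. It lay at 3R 28585466, 202 bp upstream of the TSS, with a signal of 424.4 and rank 1220. Replicate 1 placed it at rank 1100 with a signal of 165.7, and replicate 3 at rank 1373 with 256.9, with 37 bp between both positions. No TSS of another gene lay within 500 bp. A weaker pooled summit, at 3R 28587114 with a signal of 161.5, lay 1850 bp upstream, inside the noncoding gene lncRNA:CR43126. It ranked 6093 in the pooled list, 8147 in replicate 1 and 5799 in replicate 3, and it was the strongest of all 43 pooled summits below the IDR threshold at these genes. The window of fkh differed in base composition from those of bowl, cad and CrebA. It had 62.4% G and C within 50 bp of the summit, against 19.8% to 46.5% at the 10 summits of those genes. The median was 34.7% over all IDR summits, and the dve summit was not measured.

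The secretory regulator CrebA (3L 15535395 to 15553214, plus strand, FBgn0004396) had 4 IDR summits around a lone annotated TSS. The strongest, at 3L 15538094 with a signal of 456.8 and rank 1070, lay in an intron, 2699 bp downstream of the TSS, at the same base in both replicates (rank 1455 with a signal of 145.0 in replicate 1, and rank 1057 with 299.6 in replicate 3). Upstream of the TSS were summits at 255 bp (3L 15535140, signal 287.8, rank 2416), 511 bp (3L 15534884, 261.4, rank 2873) and 1766 bp (3L 15533629, 281.6, rank 2517). The summit at 255 bp had a signal of 111.2 and rank 2411 in replicate 1, and a signal of 182.5 and rank 2514 in replicate 3. The summit at 1766 bp had a signal of 97.28 and rank 3121 in replicate 1, and a signal of 194.0 and rank 2245 in replicate 3, at positions 90 bp apart on either side of the IDR position. The deposited intervals of the summits at 255 and 511 bp, which are 256 bp apart, overlap. The summit at 511 bp had a match in replicate 3, 17 bp away at rank 2891, but none within 100 bp in replicate 1, where the nearest summit, 283 bp away, was the one matched to the neighbour at 255 bp. The body of the gene held 12 of its 13 pooled summits below the IDR threshold, the highest at 3L 15549018 with a signal of 134.3 and ranks of 5866 in replicate 1 and 13568 in replicate 3. That summit lay 13623 bp past the TSS, also in an intron. Of the 13, 5 were matched in both replicates, 7 in replicate 1 and 10 in replicate 3.

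The remaining gland regulators had no summit in any list. The nearest IDR summit to sage (3R 9262654 to 9264142, minus strand, FBgn0037672) was 15.6 kb downstream, near the TSS of CG8420, and the nearest pooled summit 13.3 kb downstream. For hkb (3R 4345015 to 4346646, minus strand, FBgn0261434) the nearest summit of both the IDR and the pooled list was 25.3 kb downstream, 74 bp from a TSS of CG9795. Of all protein-coding genes, 16.1% had their nearest pooled summit as far away as sage or farther, and 8.48% as far as hkb or farther. Both genes are short, and 43.2% of the genes in their length decile had no summit in any list. Replicate 1, unlike replicate 3 and the pooled list, had nearer summits to both. They lay 1.82 kb downstream of sage at the promoter of ATP6AP2, with rank 19589, and 7.16 kb downstream of hkb, 96 bp from the TSS of CG1103, with rank 6896.

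The replicates largely shared the 12 summits. In both full replicate lists, 11 of the 12 had a summit within 100 bp, against 92.5% of all 5004 IDR summits. The IDR list is derived from these lists, so part of the match is built in. The positions of the matched summits differed from the IDR position by at most 87 bp in replicate 1 and 50 bp in replicate 3. For these 11, the signal in replicate 3 was 1.34 to 2.07 times that in replicate 1, against a median of 1.78 over all matched IDR summits, on scales that library depth can affect. Below the IDR threshold, 20 of the 43 pooled summits at these genes (46.5%) were matched in both replicates, against 41.2% of all 24996 pooled summits below the threshold. Summits close to a stronger one, as at bowl, dve and CrebA, count separately in both numbers.

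**Figure D4:**
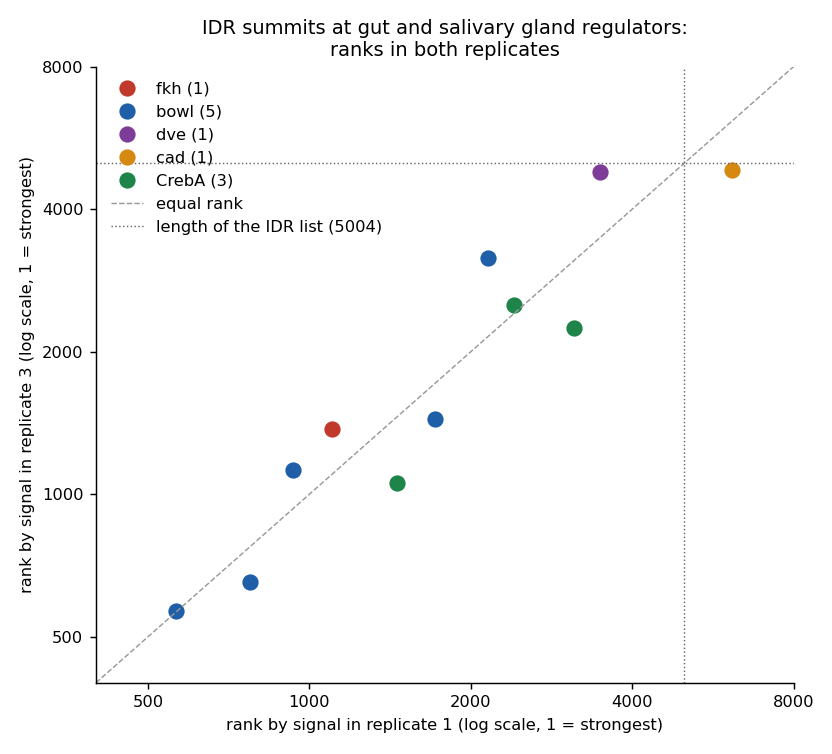
Rank by signal in replicate 1 (horizontal) and replicate 3 (vertical), both on log scales with 1 as the strongest, for the 11 IDR summits at fkh, bowl, dve, cad and CrebA that were matched in both replicates. The dashed line marks equal rank and the dotted lines the length of the IDR list. The bowl intron summit is at ranks 563 and 567, and the cad summit, at rank 6137 in replicate 1, is the only point beyond 5004 on either axis.

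By location, 5 of the 12 summits were at promoters, at fkh, bowl, dve and CrebA, against 46.4% of the 4445 IDR summits that lay in the window of any protein-coding gene. In introns of bowl, cad and CrebA, outside promoter windows, lay 4 of the 12, against 46.4% of those 4445. Both summits between genes belonged to CrebA, where the share over the 4445 was 4.52%, and the exon of lncRNA:CR43704 held the remaining bowl summit. One of the CrebA summits between genes, 511 bp from the TSS, lay just outside the 500 bp promoter window, so its class rests on that cutoff. Promoters and introns each took 41.2% of the whole IDR list. None lay within 500 bp of the TSS of another protein-coding gene, so the promoter summits are not at shared promoters. Compared with the median of 337.5 for the strongest summit of the 3446 genes that had any, the strongest summits of bowl (630.5), CrebA (456.8) and fkh (424.4) were higher and those of dve (222.4) and cad (187.7) were lower.

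ETS-type strings longer than the core were not found within 50 bp of the 11 summits searched. The search covered both strands, and each longer string contains the core GGAA. The string CGGAA occurred within 50 bp of 0 of 11 summits, against 20.1% of all IDR summits and 14.3% of windows centred 400 bp to either side of them. Its extension CGGAAG was at 0 of 11, against 7.31% of all IDR summits and 2.31% of those flanking windows. The full ETS-type string CCGGAAGT was at 0 of 11, against 0.759% and 0.13%. CGGAAG and CCGGAAGT are rare over all IDR summits, so 0 of 11 is near their shares. The core GGAA was within 50 bp of 7 of the 11, against 56.2% of all IDR summits and 54% of windows centred 400 bp to either side of them, so its presence is near the background. No match says only that these letters are not in these windows. The summit of dve was not included in the sequence search. The other strings tried were the forkhead type TGTTTAC, at 0 of 11 against 4.14% of all IDR summits, the Caudal type TTTATG, at 2 of 11 against 13.3%, and the homeodomain type TAATTA, at 2 of 11 against 9.69%.

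When the window was widened to 150 bp to either side after the data had been seen, CGGAA or its reverse complement TTCCG appeared at 3 of the 11 summits, against 40.9% of all IDR summits. These matches are shown to place them, with the string in capitals, on the plus strand. They lay 93 bp from the upstream bowl summit, 117 bp from the cad summit and 139 bp from the CrebA promoter summit.
bowl upstream, chr2L:3770082-3770106: gaaaattattTTCCGagtgcagcaa
cad intron, chr2L:20780836-20780860: tcgcagggcaTTCCGaggtcttcaa
CrebA promoter, chr3L:15535267-15535290: aagagatagaCGGAAagagagcgc
In the wider windows CGGAAG was again at 0 of 11, against 13% of all IDR summits, and CCGGAAGT at 0 of 11, against 1.22%. Of the other strings, TTTATG was at 5 of the 11 wider windows, against 31.6% of all IDR summits, TAATTA at 2 of 11, against 21.6%, and TGTTTAC at 1 of 11, the cad summit, against 10.3%. The core GGAA was at 9 of 11, against 89.2%.

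In further lists of genes, some had an IDR summit and others had none. Of 13 listed regulators and products of the salivary gland, 6 had an IDR summit in their window and 5 had none in any list. The strongest was at trh, which encodes a factor of tracheal and salivary duct fate (signal 700.0, 360 bp from a trh TSS). Next were the homeodomain cofactor gene hth (605.0, in an intron, 76948 bp from the nearest hth TSS) and rib, a regulator of tube growth (534.3, in an intron, 2243 bp from a rib TSS). The homeotic gene Scr, which specifies the gland, had none. Of 14 further gut regulators, 5 had an IDR summit. They were led by the visceral mesoderm forkhead gene bin (1021, 1264 bp from its TSS), the zinc finger gene peb (324.4, 405 bp from its TSS) and the homeobox gene ct (258.0, in an intron, 8004 bp from its TSS). Of the bowl relatives of the odd-skipped family, drm, odd and sob had no IDR summit. Of 17 matched genes of the secretory pathway, the kind of gene that CrebA raises, 5 had an IDR summit. They were led by the coat protein gene Sec13 (622.3, 516 bp from its TSS), Sar1 (535.8, 173 bp from its TSS) and Srp72 (519.6, but 445 bp from a TSS of its neighbour Septin2). The strongest summit of Sec63 (370.8) likewise lay 122 bp from a TSS of its neighbour pst. A promoter summit was found at 2 of the 17, against 15.6% of all protein-coding genes. These counts stand beside the 24.7% of all protein-coding genes, and the 5 of 17 in the secretory list is near that share. The median gene length was 11319 bp in the salivary gland list, 6980.5 bp in the gut list and 3394 bp in the secretory list, against 2166 bp over all genes.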

How the data were processed

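The peak lists deposited for embryos with GFP-tagged Eip74EF were analysed. Per the labels' file descriptions, the authors made peak lists on dm6 from either replicate's alignment and from both together, each with a control alignment, and built the IDR list out of those 3. Which aligner, caller and IDR threshold they used is not given in the sources used here. The deposited lists give a signal value, a −log10 q-value and a summit offset for each peak. Here the signal served to rank peaks within a list. No result rests on the deposited −log10 q-values. The IDR list equals the 5004 strongest pooled peaks. All other lists have 30000 peaks, a round number that carries no information on how much was bound.

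Summits were placed on Ensembl release 115 (BDGP6.54), whose coordinates for all 8 genes equal those of the RefSeq copy of the same assembly, with Python 3.11.15, pandas 2.3.3 and numpy 2.4.6. Promoters were 500 bp to either side of a TSS, matched summits lay within 100 bp, and strings were sought within 50 bp on both strands. The steps were checked on random peaks with planted answers. The named genes are the 8 genes with all IDR summits, the strongest pooled summit where a gene had none in the IDR list (none of these 3 had one), genes holding or nearest to their summits, and up to 3 genes per further list with the strongest summit. Scr, drm, odd, sob, Septin2, Sec63, pst and the genes named only as neighbours of summits outside the windows (CG44837, CG5946, CG8420, CG9795, CG1103, ATP6AP2, bark, dia and AGO2) fall outside this rule and were chosen with their values known. The genes and lists were chosen with earlier results of these data known. The replicates are biological replicates by their labels. Alternatives were a stricter threshold, the pooled list, each replicate alone, other windows and other match distances.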

Additional observations from a re-analysis of the deposited data

How the results depend on the processing

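The number of genes with an IDR summit, 5 of 8, was 3 among the 2502 strongest IDR peaks (fkh, bowl and CrebA), where 15.5% of all protein-coding genes had a summit. With the 5004 strongest peaks of replicate 1 alone it was 4, cad being without a summit, against 27.1% of all protein-coding genes. With those of replicate 3 alone it was 5, against 23.7%. The number of summits, 12, was 7 among the 2502 strongest IDR peaks, 55 in the pooled list, 5 in the genes alone without upstream sequence and 19 with 10 kb added on either side. Within the genes alone, 4 of the 8 had a summit, fkh having none, against 13.4% of all protein-coding genes. With 10 kb on either side, 5 of the 8 had one, against 57.6%, a share near the background. The number of summits was 11 to 12 with a replicate left out. With overlapping IDR intervals merged, an alternative chosen after seeing the data, the 12 summits made up 10 regions, with 4 at bowl and 3 at CrebA, and 1.84% and 3.31% of all protein-coding genes had as many. The number of genes with a promoter summit, 4, was 2 in a window of 250 bp and 3 to 4 in every other alternative run. The share of all protein-coding genes with a promoter summit was computed only for the IDR list and the 500 bp window. Whether the promoter counts of the alternatives depart from the background is therefore not known. Among the further lists, 2 gut regulators had a summit among the 2502 strongest IDR peaks, against 5 in the full list, and secretory pathway genes with a summit numbered 5 to 8 with a replicate left out, against 5. No paired analysis was possible because both samples formed 1 group. Signal thresholds and unknown depth limit what the absence of a listed summit can show.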

Other observations

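A further 7 IDR summits lay outside the windows but within 10 kb of fkh, bowl, cad or CrebA. Of these, 2 were near fkh and had no nearer protein-coding gene. One, at 3R 28590698 with a signal of 234.9 and rank 3422, lay 5434 bp upstream of the fkh start in an exon of lncRNA:CR43126, the noncoding gene that also holds the weaker fkh summit, and another, at 3R 28571009 with a signal of 185.6 and rank 4960, lay 14103 bp from the nearest fkh TSS, past the end of the gene. The remaining 5 lay nearest to TSSs of other genes. At bowl, both belonged to the promoter of bark, with signals of 423.8 and 184.6. At cad, a summit with a signal of 419.9 lay 272 bp from a TSS of Pomp and another, with 220.4, in an intron of dia. At CrebA, a summit with a signal of 230.5 lay 130 bp from a TSS of AGO2. The genes byn, hkb and sage had no IDR summit within 10 kb, and dve had none beyond its window.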
